A study of Saccharomyces cerevisiae with 29 samples.

Results

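A set of 10 histone genes of budding yeast, the core, H2A.Z and linker histones, was described as it stands in the annotation of L03, the reference sequence on which this study placed its DNA ends. They were the gene features named HHT1, HHT2, HHF1, HHF2, HTA1, HTA2, HTB1, HTB2, HTZ1 or HHO1, and 10 of 10 names were found, among 5857 protein-coding genes used here. CSE4, the gene for the centromeric H3 variant, is not in this set. The study comprised 29 libraries of 14 strains of Saccharomyces cerevisiae. They were made by HydEn-seq, which sequences the 5′ ends that alkali leaves at ribonucleotides in genomic DNA. The backgrounds were wild type (WT), pol1-L868M, pol1-Y869A, pol2-M644G, pol2-M644L, pol3-L612G and pol3-L612M, each with RNH201 (13 libraries in all) and with rnh201-delta (16 libraries). The pol1, pol2 and pol3 alleles alter the catalytic subunits of DNA polymerases alpha, epsilon and delta, and RNH201 encodes the catalytic subunit of RNase H2, which removes ribonucleotides from DNA. Counts of DNA ends were not analysed here. All values below are therefore positions and lengths in the shared reference, without a strain, a depth, a replicate spread or a p-value.

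Histones H2A, H2B, H3 and H4 form the octamer around which DNA is wrapped. Yeast carries each of the 4 core histones in a pair of copies, and transcribes them mainly in S phase, when newly copied DNA has to be packed into nucleosomes. The copies are arranged as divergent pairs, H2A with H2B and H3 with H4, whose start codons face a common regulatory gap. The HIR repressor complex acts on the core pairs other than HTA2-HTB2. Htz1 is the H2A.Z variant that the SWR1 complex puts in place of H2A, and Hho1 is the linker histone.

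All 8 core genes lay in such divergent pairs. Of the 4 pairs, 3 had a gene within 5 kb of an annotated origin of replication, against 24.8% of 1505 divergent pairs. The pair HHF1-HHT1 lay on chromosome II beside ARS209, HTB1-HTA1 on chromosome IV beside ARS428, and HTA2-HTB2 on chromosome II near ARS208. The pair HHT2-HHF2 on chromosome XIV and the single genes HTZ1 on chromosome XV and HHO1 on chromosome XVI had no origin within 5 kb. An origin within 5 kb was thus found for 6 of the 10 genes, against 20.2% of all genes. These 6 genes stand for 3 places in the genome. An origin inside the pair or in a gap directly beside it was found for 2 of the 4 pairs, against 12.1% of divergent pairs. The description of histone gene pairs as lying beside origins therefore holds for only some of them. The lists and limits used here were chosen with earlier results of this annotation known.

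**Figure D1:**
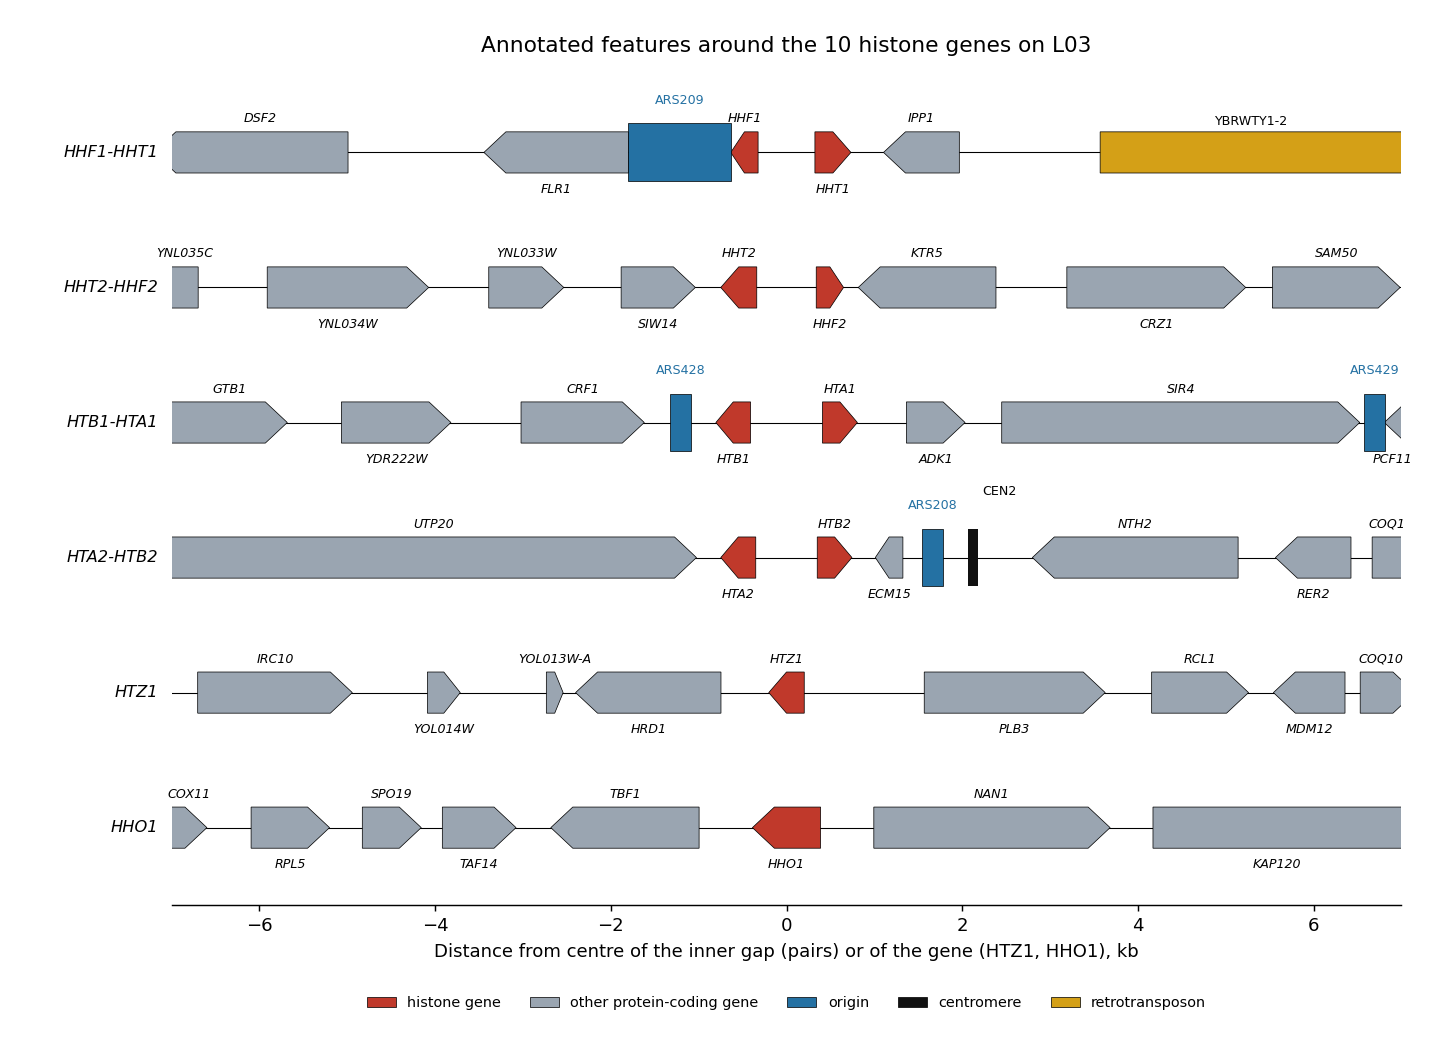
Annotated features within 7 kb of each core histone pair and of HTZ1 and HHO1. The horizontal axis is the distance in kb from the centre of the inner gap or of the single gene, arrows give the direction of transcription, blue boxes are origins, the yellow box is a retrotransposon and the black bar is a centromere, while reading frames inside the retrotransposon, tRNA genes and solo LTRs are not drawn. ARS209 and ARS428 lie in the gap directly beside a core pair, ARS208 lies one gene away, and the maps of HHT2-HHF2, HTZ1 and HHO1 show no origin.

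Histone H3 and H4 genes came first. HHF1 (YBR009C, histone H4) spanned 255354 to 255665 on the minus strand of chromosome II, and HHT1 (YBR010W, histone H3) spanned 256312 to 256722 on the plus strand. Their start codons were separated by 646 bp, from 255666 to 256311. The other copies lay on chromosome XIV, with HHT2 (YNL031C, histone H3) at 575596 to 576006 on the minus strand and HHF2 (YNL030W, histone H4) at 576683 to 576994 on the plus strand. Their gap was 676 bp, from 576007 to 576682. H4 was thus to the left of H3 on chromosome II and to the right of it on chromosome XIV.

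The H2A and H2B genes showed the same layout with longer gaps. HTB1 (YDR224C, histone H2B) spanned 914219 to 914614 on the minus strand of chromosome IV, and HTA1 (YDR225W, histone H2A) spanned 915432 to 915830 on the plus strand, with 817 bp between them. HTA2 (YBL003C, histone H2A) spanned 235375 to 235773 on the minus strand of chromosome II, and HTB2 (YBL002W, histone H2B) spanned 236473 to 236868 on the plus strand, with 699 bp between them. Here too the copies were turned relative to the chromosome, with H2B to the left of H2A on chromosome IV and to the right of it on chromosome II.

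The 2 copies of each core histone had the same coding length. Both H3 genes were 411 bp long, both H4 genes 312 bp, both H2A genes 399 bp and both H2B genes 396 bp, a difference of 0 bp in each case. The stated proteins had 136, 103, 132 and 131 residues. The notes of the deposited annotation call the H3 proteins identical, the H4 proteins identical and the H2A and H2B proteins nearly identical. The 10 histone genes each had 1 coding segment, as did 94.6% of all genes. The coding length of each equalled that required by its stated protein, as it did for all but 1.54% of all genes. All 10 coding sequences carried a qualifier of experimental evidence, as did those of 4727 of the 5857 genes.

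Histone genes were short. H4 was the shortest member, and 334 of 5857 genes (5.70%) had a shorter coding sequence. For H3 this number was 590 genes (10.1%). HTZ1 (YOL012C), at 405 bp and 134 residues, was slightly longer than the H2A genes, with their 399 bp. HHO1 (YPL127C), at 777 bp and 258 residues, was the longest member, and 1635 genes (27.9%) were shorter. The median over all genes was 1224 bp.

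The gaps inside the 4 core pairs were of middling length among divergent gaps, somewhat above the median. Among 1505 gaps between divergent neighbouring genes, the median was 544 bp, with quartiles of 298 bp and 844 bp. The core gaps exceeded that median by 102 bp to 273 bp and stayed below the upper quartile. The HHF1-HHT1 gap was longer than 59.7% of divergent gaps (95% exact Clopper-Pearson interval 57.2% to 62.2%), and the HTB1-HTA1 gap was longer than 73.5% (71.2% to 75.7%). The median core gap of 687.5 bp was longer than 63.7% of them. These intervals treat gaps as independent, which neighbours are not. They also treat the gaps as a sample, although the 1505 gaps are all those of the annotation used here. The shares are therefore best read as ranks. A gap between 646 bp and 817 bp was found for 208 divergent pairs (13.8%). No other feature was annotated inside any of the 4 gaps, as was the case for 1329 of the 1505 divergent gaps. The gene features end at the codons, so the untranslated leaders lie within these gaps and the regulatory part is shorter than the values given.

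**Figure D2:**
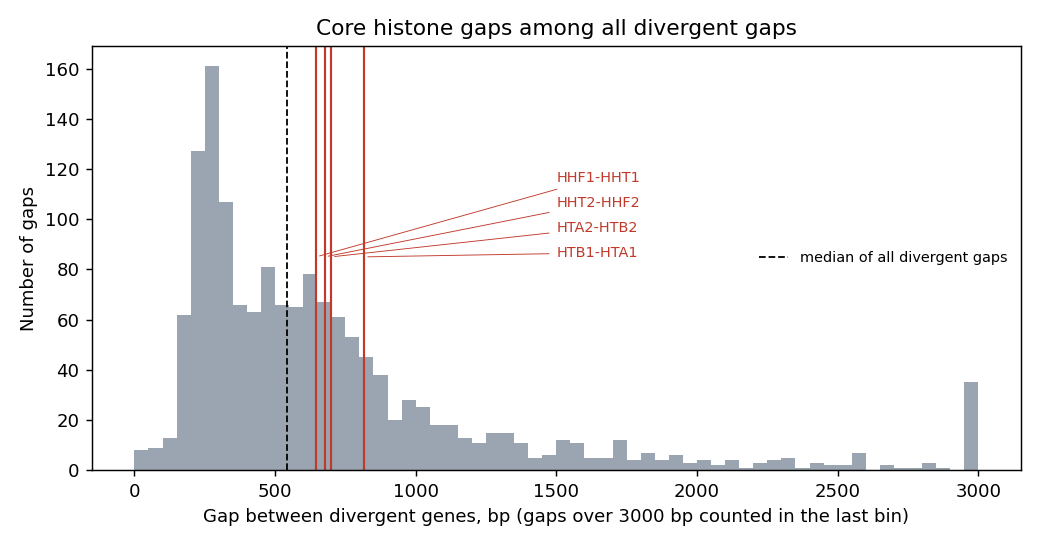
Histogram of the 1505 gaps between divergent neighbouring genes, with the gap length in bp on the horizontal axis and the number of gaps per 50 bp bin on the vertical axis. Solid lines mark the 4 core histone gaps, from 646 bp to 817 bp, all to the right of the dashed line at the median of 544 bp.

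Distance to an origin was measured between midpoints. HTB1 was 0.601 kb from ARS428, and its partner HTA1 was 1.815 kb from it. HHF1 was 0.741 kb from ARS209, and HHT1 was 1.75 kb from it. HTB2 was 1.11 kb from ARS208, and HTA2 was 2.21 kb from it. These 6 genes were within 5 kb of an origin, as were 1186 of all 5857 genes (20.2%). Because the 2 genes of a pair are neighbours, the 6 genes stand for 3 places in the genome. Of the 1505 divergent pairs, 24.8% had a gene within 5 kb of an origin.

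The other 4 genes were well outside that limit. HTA2, at 2.21 kb, was the farthest gene inside the limit and HHT2, at 14.6 kb from ARS1422, the nearest gene outside it. HHF2 was 15.6 kb from ARS1422, HHO1 was 19.6 kb from ARS1614 and HTZ1 was 26.1 kb from ARS1511. The median of the 10 genes was 2.01 kb, against 13.5 kb for all genes. No gene lay between 2.21 kb and 14.6 kb, so this median falls at the upper edge of the near group and not at a typical value.

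**Figure D3:**
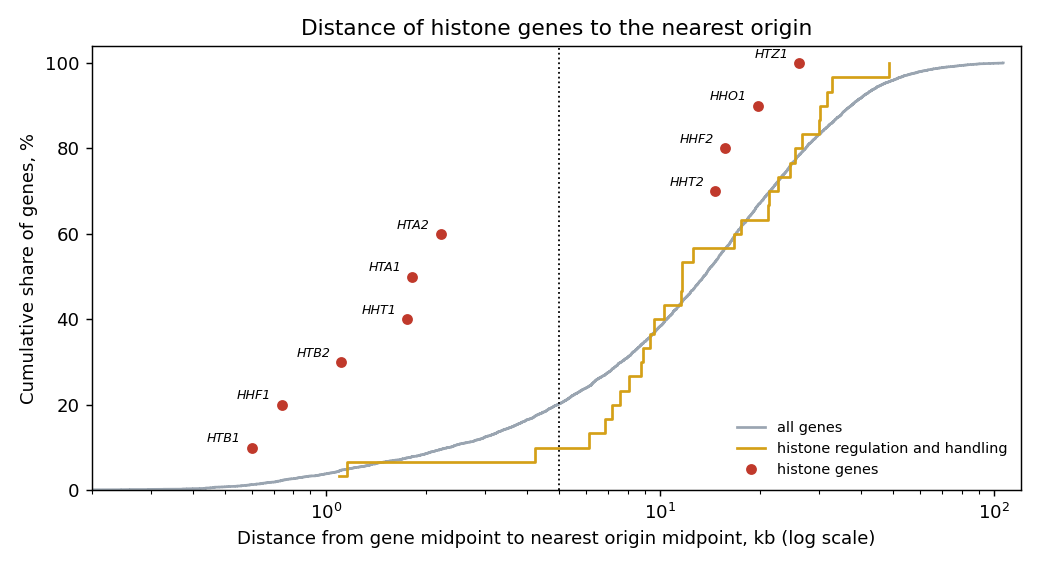
Cumulative share of genes (vertical axis, in percent) by distance from gene midpoint to the midpoint of the nearest origin (horizontal axis, kb, log scale), for all genes, for 30 genes of histone regulation and handling (CSE4 included), and for the 10 histone genes as points. The dotted line is at 5 kb, and 6 histone points lie to the left of it and 4 to the right.

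The 3 near origins differed in size and in what lay around them. ARS209, at 254187 to 255351 on chromosome II, was 1165 bp long, and 3 of the 274 annotated origins were longer, against a median of 247 bp. It filled the gap of 1163 bp between FLR1, a multidrug transporter gene, and HHF1. It ended 2 bp short of the stop codon of HHF1 and reached 4 bp into FLR1. For a feature of that length the midpoint is a rough position. ARS428, at 913692 to 913940 on chromosome IV, was 249 bp long and stood in a gap of 814 bp between the 3′ ends of CRF1, which encodes a corepressor of ribosomal protein genes, and HTB1. It was 287 bp from CRF1 and 278 bp from HTB1. ARS208, at 237665 to 237899 on chromosome II, was 235 bp long and was separated from HTB2 by ECM15, a small gene of unknown function.

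By the rule that an origin is beside a pair when its midpoint lies in the inner gap or in the first gap on either side, 2 of the 4 core pairs had one, against 12.1% of the 1505 divergent pairs. With the second gap on either side counted as well, 3 of 4 core pairs had one, against 19.9%. With 4 pairs the count can move only in steps of 1, and the comparison was not tested. None of the origins on either side of the histone genes carries a qualifier of experimental evidence, which 4 of the 274 origins do. Whether and when these origins fire was not examined.

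Each origin near a core pair lay outside the pair, on the side of 1 of its genes. In a divergent pair this makes the nearer gene point toward the origin and the farther gene away from it. A gene that points away is transcribed in the direction of a fork leaving that origin, and a gene that points toward it is transcribed against such a fork. At both H2A-H2B pairs it was H2B (HTB1 and HTB2) that was nearer and pointed toward the origin, and H2A (HTA1 and HTA2) that pointed away. With only 2 such pairs, this likeness was not tested. HTA1 also pointed toward the origin on its other side, ARS429, at 6.09 kb. For H3 and H4 the copies differed, with HHF1 pointing toward ARS209 and HHF2 away from ARS1422, and HHT1 pointing away and HHT2 toward. Both HTZ1 and HHO1 pointed toward their nearest origin. In all, 4 of 10 histone genes pointed away, against 49.6% of all genes. For the 8 core genes the count of 4 follows from the layout in divergent pairs and carries no further information.

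The origins on the far side set the stretch in which each gene lay. HTB1 and HTA1 stood in a short one of 7.90 kb between ARS428 and ARS429, and 26 of the 258 distances between neighbouring origins were shorter. ARS429 lay at the far end of SIR4, a gene for a silencing protein, and ADK1, for adenylate kinase, came between SIR4 and HTA1. HHF1 and HHT1 stood at the left end of a stretch of 71.5 kb from ARS209 to ARS211, and 43 of the 258 distances were longer. HTA2 and HTB2 stood at the right end of a stretch of 39.4 kb from ARS231 to ARS208, close to the median of 37.4 kb. HHT2 and HHF2 lay 30.2% and 32.3% of the way from ARS1422 to ARS1424, which are 48.3 kb apart. HTZ1 lay 43.7% of the way from ARS1511 to ARS1513, nearly midway, so which origin is nearest says least about it. HHO1 lay 20.6% of the way from ARS1614 to ARS1618, a stretch of 95.1 kb that only 13 distances exceeded.

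**Figure D4:**
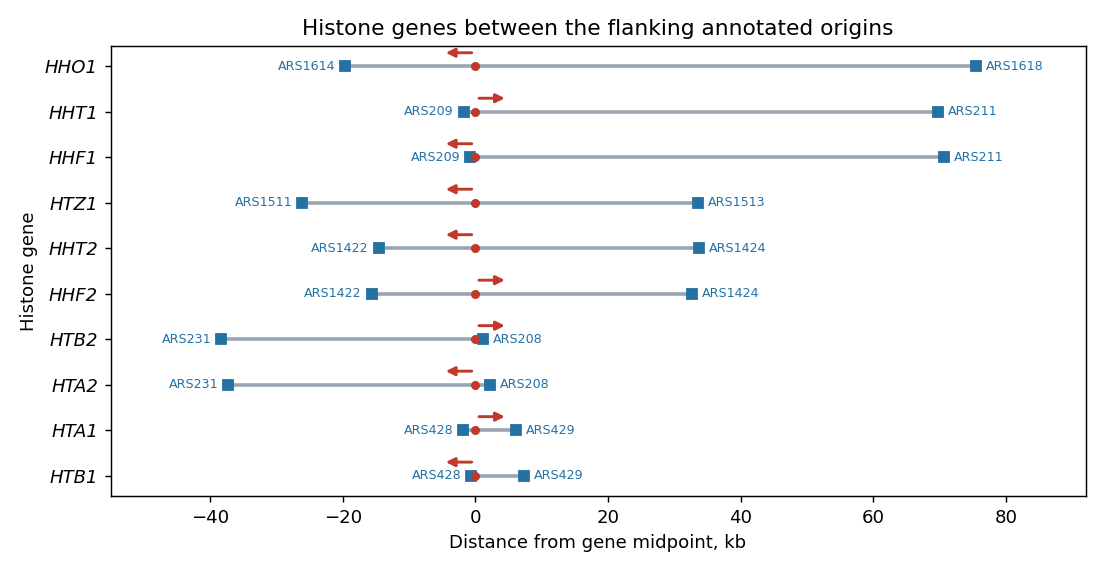
Each of the 10 histone genes at 0 with the nearest annotated origin midpoints on either side as squares. The horizontal axis is the distance from the gene midpoint in kb, rows are genes, and the arrow above each row gives the direction of transcription. HTB1 and HTA1 have an origin on both sides within 7.30 kb, while HHF1 and HHT1 have one at under 2 kb on the left and none for at least 69.7 kb on the right.

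The genes on the outer sides of the core pairs mostly ended toward them. Of the 8 outer gaps, 6 were convergent and 2 tandem, where 53.5% of 3002 outer gaps of divergent pairs were convergent. The convergent neighbours were IPP1 (inorganic pyrophosphatase) at 370 bp from HHT1, SIW14 (a phosphatase) at 288 bp from HHT2, KTR5 (a putative mannosyltransferase) at 166 bp from HHF2, CRF1 at 814 bp from HTB1, UTP20 (a component of the small-subunit processome) at 276 bp from HTA2 and ECM15 at 265 bp from HTB2. The tandem ones were FLR1 at 1163 bp from HHF1 and ADK1 at 557 bp from HTA1. The 2 origins in outer gaps therefore lay in the 2 longest of the 8 gaps. In the next position stood DSF2 beyond FLR1, the Ty1 reading frame YBR012W-A beyond IPP1, YNL033W beyond SIW14, CRZ1 (a transcription factor gene) beyond KTR5 and YDR222W beyond CRF1. On the remaining sides these were SIR4 beyond ADK1, the Ty1 reading frame YBL005W-B beyond UTP20 and NTH2 (a putative trehalase) beyond ECM15.

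HTZ1, at 301621 to 302025 on the minus strand of chromosome XV, was followed at 543 bp by HRD1, a ubiquitin ligase gene, and diverged from PLB3, a phospholipase gene, across 1365 bp. That gap was longer than 88.8% of divergent gaps. A proline tRNA gene, TP(UGG)O1, lay 2380 bp and an LTR (a long terminal repeat of a retrotransposon), YOLCDELTA8, 2557 bp to its left. Beyond HRD1 and PLB3 stood YOL013W-A and RCL1. HHO1, at 308819 to 309595 on the minus strand of chromosome XVI, diverged from NAN1, a ribosome assembly gene, across 605 bp, longer than 55.7% of divergent gaps. It was followed at 606 bp by TBF1, a gene for a protein that binds telomere-like repeats, with TAF14 beyond it and KAP120 beyond NAN1. Neither single gene is part of a pair of histone genes, and no tRNA gene, LTR or retrotransposon lay within 5 kb of HHO1.

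Of the 8 core genes, 4 shared a small region of chromosome II. From left to right this held HTA2-HTB2, ECM15, ARS208, the centromere CEN2, the genes from NTH2 to FLR1, ARS209 and HHF1-HHT1. HTB2 was 1.32 kb and HHF1 17.05 kb from CEN2, and the centres of the pairs were 19.9 kb apart. Both origins lay on the inner side of their pair, 17.0 kb from each other, so that HTA2-HTB2 and HHF1-HHT1 stood just outside the stretch between them. The remaining core pairs were farther from a centromere, at 51.7 kb for HHF2 and 464 kb for HTB1.

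The same region was bounded by a Ty1 retrotransposon on each side. YBLWTY1-1, at 221028 to 226933 on the plus strand, ended 8.44 kb to the left of HTA2. YBRWTY1-2, at 259559 to 265473 on the plus strand, began 2.84 kb to the right of HHT1. They were 5906 bp and 5915 bp long and their starts were 38.5 kb apart. Between them lay CEN2, 2 origins and 15 protein-coding genes, 4 of them histone genes. As background, budding yeast that has lost HTA1 and HTB1 is known to gain an extra circular chromosome from this region, by recombination between the Ty1 elements. Retrotransposon positions differ between yeast strains, and those of the study's strains were not examined beyond this reference.

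**Figure D5:**
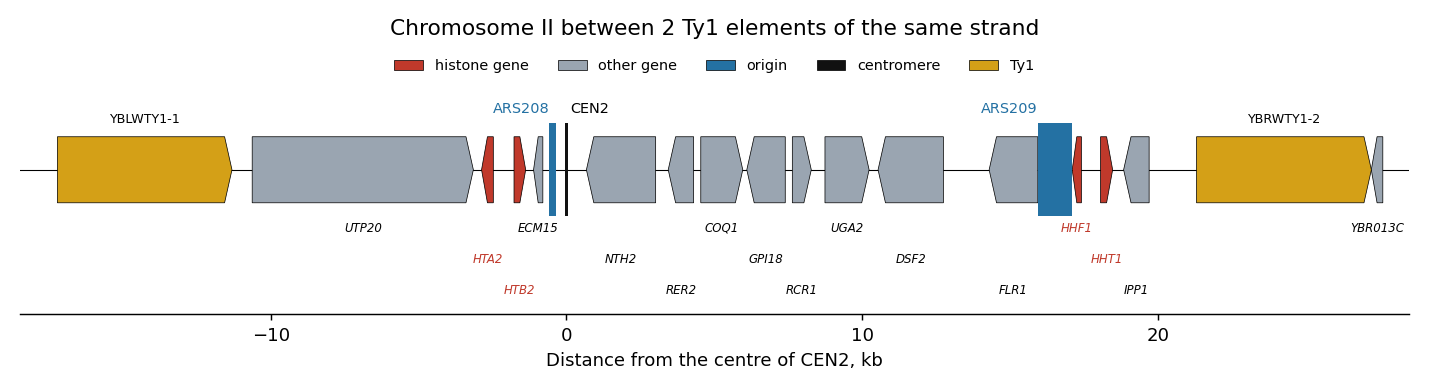
The region of chromosome II between 2 Ty1 elements of the same strand, by distance in kb from the centre of CEN2. Arrows are protein-coding genes and Ty1 elements in their direction of transcription, boxes are origins, and reading frames inside Ty1, tRNA genes and solo LTRs are not drawn. Both histone pairs lie outside the interval between ARS208 and ARS209, which holds the centromere.

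Such an arrangement around a centromere was seen on 1 other chromosome, at a far larger scale. Of 16 centromeres, 6 had an annotated retrotransposon on both arms, and for 2 of these the nearest elements were of the same family and strand. They were those of chromosome II, with starts 38.5 kb apart, and of chromosome XV, with starts 475 kb apart, and the latter stretch held HTZ1. Among 35 pairs of neighbouring retrotransposons on one chromosome, 5 were of the same family and strand with starts at most 50 kb apart, and 1 of these, that of chromosome II, held a centromere. HHF1-HHT1 also had a solo LTR, YBRCDELTA11, 1928 bp to its right. HHT2-HHF2 had the Ty2 element YNLCTY2-1 at 7.98 kb to its left, on the side of ARS1422, and HTB1-HTA1 had none closer than 30.1 kb.

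A list of 30 genes held regulators of histone genes, chaperones, importers and enzymes that act on histones, and CSE4. Of these, 3 lay within 5 kb of an origin (10%, 95% exact Clopper-Pearson interval 2.11% to 26.5%), against 20.2% of all genes. The interval treats the 30 genes as independent draws, which a chosen list is not, and the difference was not tested. The median distance of the 30 genes was 11.7 kb, against 13.5 kb for all genes. The nearest were POB3 (a subunit of the FACT histone chaperone) at 1.095 kb from ARS1307, CHZ1 (a chaperone for Htz1) at 1.16 kb from ARS512 and RTT109 (a histone H3 acetyltransferase) at 4.22 kb from ARS1208. The farthest were HPC2 and HIR2 (both of the HIR complex) at 31.5 kb from ARS220 and 32.8 kb from ARS1501, and PSH1 (a ubiquitin ligase for the centromeric H3 variant) at 48.4 kb from ARS1511. Of the 30, 14 pointed away from the nearest origin, against 49.6% of all genes.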

How the data were processed

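The annotation of L03 (ref_v2) was used. Its header credits release R64-1-1 of the S288C genome as the origin of the features. The steps from there to L03 are not stated. The deposited values are starts and ends in bp, counted from 1 on 16 chromosomes. Reads were handled with cutadapt 1.2.1 and Bowtie 0.12.8, per the submitters' processing notes, but no value used here came from reads.

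Genes were the 5859 gene features with an mRNA, less 2 called dubious. Origins were taken at their midpoints, and gaps below 1 bp were left out. All 10 locus tags, their symbols and 12 of 12 first neighbours had a match in a RefSeq table of assembly R64. Named features were the members, the 2 genes on each side, the nearest origins, repeats and tRNA genes within 5 kb, the 3 most similar divergent pairs, and the 3 nearest and 3 farthest genes of the list on histone regulation and handling. ARS429, the retrotransposons beyond 5 kb and the families of duplicated pairs were chosen after their values were seen. Members and lists were chosen with earlier results of these data known. Distances and gap kinds were tested on simulated chromosomes. No statistical test was run, and the alternatives are given in the closing section. Python 3.11.15 with numpy 2.4.6, pandas 2.3.3, scipy 1.17.1 and matplotlib 3.10.9 was used.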

Additional observations from a re-analysis of the deposited data

How the results depend on the processing

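Of 21 alternatives to the values above, 18 stayed within 1.5 times the count, within the interval of the share, or within the spread of the distances. Some of these had little or no room to change. Stated protein lengths had to give the same differences between copies, since each coding length equalled that required. The count of core genes pointing away follows from the layout in pairs. Counting only the 8 core genes could not change the count of 6 within 5 kb, as HTZ1 and HHO1 were outside that limit. Counting the second gap moved the core pairs with an origin from 2 to 3, exactly at the limit of 1.5 times. The share of divergent gaps shorter than the median core gap was 63.7%, and it was 55.0% among genes with experimental evidence and 69.8% among gaps holding no other feature. The 2 core pairs with an origin directly beside them became 1 when the whole origin had to lie in the gap, since ARS209 reaches 4 bp into FLR1, and 7.57% of divergent pairs then had one. Histone genes within an origin limit were 5 of 10 at 2 kb and 6 of 10 at 10 kb, where all genes gave 8.59% and 38.3%. Counting only the 8 core genes, or any origin within 5 kb of a pair whatever lay between, was added after seeing the data. The latter gave 3 of 4 pairs, against 24.8% of divergent pairs. Planned counts of promoter motifs and protein identities were not run, as no sequence was used here. No paired analysis was possible because the values come from 1 annotation and not from samples. Depth plays no role for positions, and 4 pairs limit what any count can show.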

Other observations

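In 36 divergent pairs both coding sequences were at most 411 bp long, and 4 of these were the core histone pairs. The gap centre was within 5 kb of an origin in 10 of the other 32 pairs and in 3 of the 4 histone pairs. The share by gap centre over all divergent pairs was not counted. The median distance from gap centre to nearest origin was 11.4 kb for the other 32 pairs, against 13.7 kb over all divergent pairs. Of those 32, 2 had a gap between 646 bp and 817 bp, and their median gap was 449.5 bp.

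By gap length and by distance from gap centre to the nearest origin, divergent pairs other than the core pairs were ranked by likeness to the medians of the core pairs (687.5 bp and 1.44 kb). The most alike were YIL077C-SEC28 on chromosome IX (704 bp, 1.505 kb), YOR228C-WTM2 on chromosome XV (631 bp, 1.353 kb) and PPH22-YDL186W on chromosome IV (617 bp, 1.548 kb). SEC28 encodes a coatomer subunit, WTM2 a transcriptional repressor and PPH22 a catalytic subunit of protein phosphatase 2A. HHT2-HHF2, with its gap centre 15.1 kb from ARS1422, was less like these medians than the other core pairs. Its summed absolute log2 ratio to both medians was 3.42, against 0.23 to 0.50 for the others. The medians come from the core pairs themselves, most of which are near an origin. The score of HHT2-HHF2 thus mainly restates its distance from ARS1422. Over all divergent pairs the median distance was 13.7 kb.

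Divergent pairs that occur more than once were sought by gene name, taking names that differ in the last character as copies, a rule set after the histone pairs were seen. It found 11 families, which include chance matches of names, and in 6 of them the copies had equal coding lengths on both sides. The 2 histone families were among these, with gap lengths that differed by 30 bp for H3-H4 and by 118 bp for H2A-H2B. Another was that of RPS16B-RPL13A and RPL13B-RPS16A, ribosomal protein genes with gaps of 634 bp and 720 bp. The others were COS6-YRF1-3 with YRF1-6-COS1, HSP33-ERR1 with ERR2-HSP32, and HXT15-THI13 with THI11-HXT16. Their gap lengths differed by 97 bp, 1 bp and 0 bp. In the family of MYO4-FRT2 and FRT1-MYO2, with gaps of 629 bp and 680 bp, neither side had equal coding lengths. The range of gap lengths within a family ran from 0 bp to 1074 bp.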
